A study of Arabidopsis thaliana with 4 samples.

Results

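The genes described here are 38 genes of Arabidopsis thaliana that encode proteins RPSa to RPS14 of the small subunit of the cytosolic ribosome. They were taken by locus tag from a list of 15 protein families, with 2 to 4 paralogous genes in each family, out of 27444 protein-coding genes on chromosomes 1 to 5. Family names follow the general Arabidopsis nomenclature, and the gene table used here names the family for 9 of the 38. TRB1 binds telomeric repeats through a domain of the Myb type, and here it was mapped along the chromosomes by chromatin immunoprecipitation and sequencing in whole seedlings aged 14 days. The labels' growth protocol names both constant light and a long day of 16 h at 21 °C and 8 h at 19 °C.

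The libraries were 4, with 1 in each group. Plants with the transgene TRB1pro:TRB1-GFP, in which the TRB1 promoter drives TRB1 fused to green fluorescent protein, were precipitated on a GFP-Trap A matrix, and Wt plants on the same matrix were their control. Wt plants were also precipitated with the antibody anti-TRB1 (5.2), and Wt chromatin without the antibody was the control of that approach. The data are 4 peak lists. The replicate 1 list and the replicate 2 list each hold peaks with a score, the PePr list holds peaks with a p-value, and the genomic list holds positions only. The sources used here do not say which approach gave which replicate list. Read depth is unknown, and the controls enter only through the authors' peak calls. Of the 4995 intervals of the genomic list, all 4995 were identical to a stretch shared by the other 3 lists, so it adds no evidence of its own. With 1 library per group there is no replicate error, and every difference below is a description without a test.

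The small ribosomal subunit binds messenger RNA and decodes it, and its proteins fold and hold the ribosomal RNA around the channel that the message passes through. Each ribosome holds 1 copy of each of these proteins, and in Arabidopsis each is encoded by a small family of expressed genes whose products are nearly alike, so that paralogues share the supply of a protein. Ribosomal protein genes of plants are known for short telomere-like repeats (telo boxes) in their promoters, the kind of sequence that TRB proteins bind. No promoter sequence or gene strand was used here, so the start and the end of a gene were not told apart.

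Nearly all of the 38 genes had a TRB1 peak. A gene was counted when a peak touched the stretch from 500 bp outside to 500 bp inside 1 of its ends. In the replicate 2 list 37 of 38 genes had one (97.4%, exact 95% interval 86.2 to 99.9), where 41.4% of all protein-coding genes did. In the replicate 1 list 27 of 38 had one (71.1%, interval 54.1 to 84.6), against 24.6% of all genes. In the PePr list it was 37 of 38 (97.4%, interval 86.2 to 99.9), against 68.7%, and in the genomic list 27 of 38 (71.1%, interval 54.1 to 84.6), against 19.6%. The intervals are Clopper-Pearson intervals over genes and cover counting error only. They treat genes as independent draws, whereas these are a listed set of paralogues, and they hold no replicate error. All 4 shares lay above the share of all genes, with the narrowest gap in the PePr list, which reaches most genes.

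The rest of the small subunit had shares of the same order. Of 53 genes listed for RPS15 to RPS30, 50 had a replicate 2 peak (94.3%, interval 84.3 to 98.8), 51 a PePr peak (96.2%, interval 87.0 to 99.5), 29 a replicate 1 peak (54.7%, interval 40.4 to 68.4) and 28 a genomic list interval (52.8%, interval 38.6 to 66.7). The intervals of both sets overlap in every list. The difference between the sets was not tested.

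**Figure D1:**
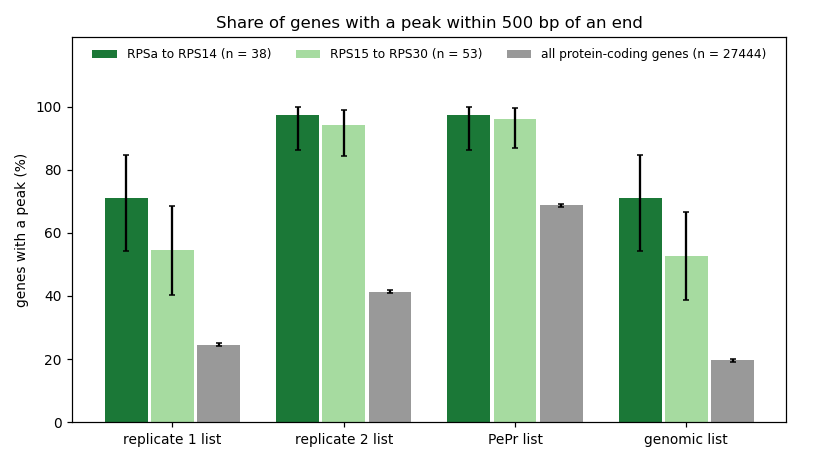
Percentage of genes with a peak within 500 bp of a gene end (y axis) in each of the 4 lists (x axis), for RPSa to RPS14 (dark green, n = 38), RPS15 to RPS30 (light green, n = 53) and all protein-coding genes (grey, n = 27444). Bars are shares and error bars exact 95% intervals over genes; RPSa to RPS14 stand at 97.4% in the replicate 2 and PePr lists and at 71.1% in the replicate 1 and genomic lists.

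The calls fell into 3 patterns. There were 27 genes with a peak in all 4 lists (71.1%, against 19.6% of all genes), 10 genes with a peak in the replicate 2 and PePr lists only (26.3%, against 16.4%), and 1 gene with none (2.63%, against 26.9%). No gene had a PePr peak alone, the most frequent pattern among all genes (29.4%). None had a replicate 1 peak without a replicate 2 peak, which was rare over all genes too. There, 0.496% had a replicate 1 peak alone and 1.83% had replicate 1 and PePr peaks only. Among genes with a peak in both the replicate 2 and the PePr list, the replicate 1 list held a peak at 27 of 37 (73.0%) of RPSa to RPS14, at 28 of 49 (57.1%) of RPS15 to RPS30 and at 5781 of 10289 (56.2%) of all genes.

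Each family had at least 1 paralogue in the genomic list, and 0 of the 15 families lacked it. In 6 families every paralogue was there, among them RPS3, RPS3a, RPS10 and RPS13. In the other 9 families, which include RPSa, RPS2, RPS4, RPS6, RPS7, RPS9, RPS12 and RPS14, paralogues differed. The values of 12 families are given by gene, and the others enter the counts and summaries. In every one of these 9 the difference came from the replicate 1 list, and only in RPS2 did paralogues also differ in the replicate 2 and PePr lists. Scores below were assigned by the authors, and their scale is unknown. They were compared only within a list, and 3100 is a value at which many peaks stand (29.4% of replicate 1 peaks and 12.3% of replicate 2 peaks had that score or more). The replicate 1 list held 3975 peaks, the lowest at 664.33, and the replicate 2 list 7480, the lowest at 87.57. Whether this difference between the lists accounts for genes without a replicate 1 peak was not tested.

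**Figure D2:**
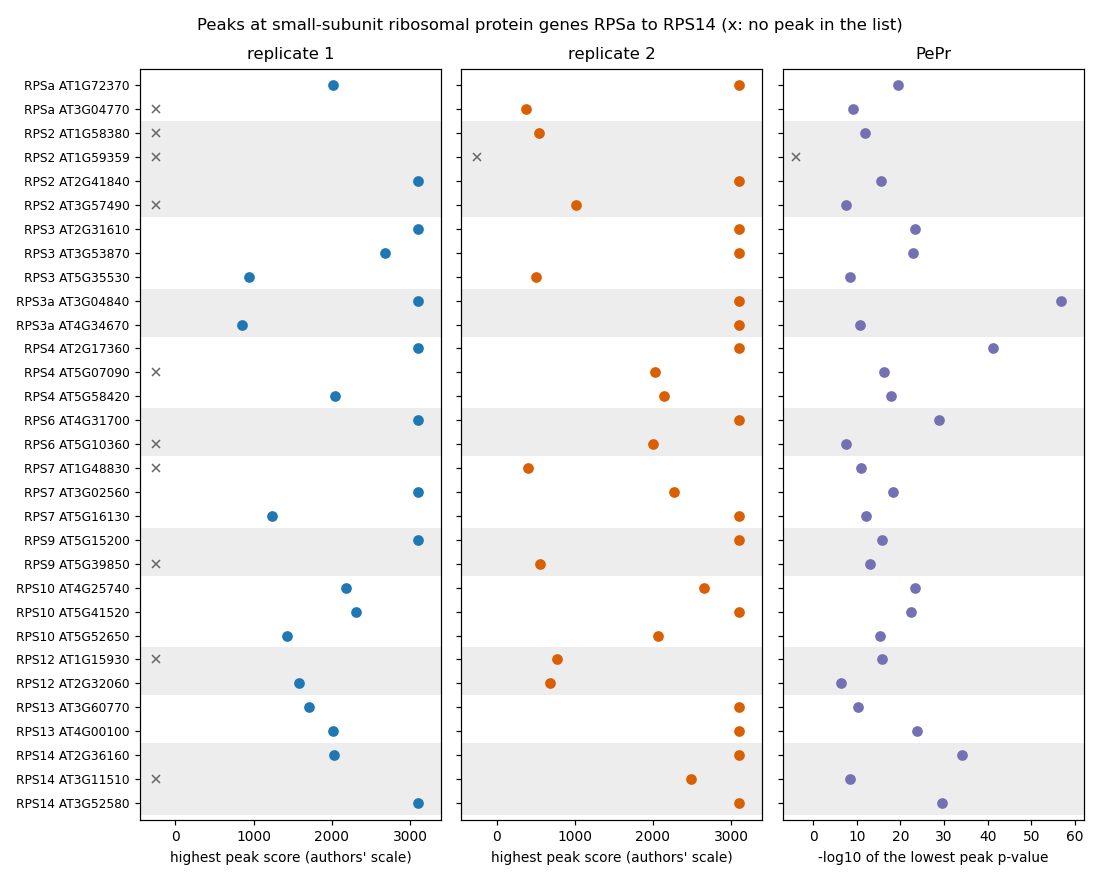
Highest peak score at each of 31 genes from 12 families in the replicate 1 list (left) and replicate 2 list (middle), and −log10 of the lowest PePr p-value (right), 1 row per gene with shading by family. A cross marks a gene without a peak: 10 in replicate 1, and AT1G59359 alone in replicate 2 and PePr.

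RPS2, RPS3 and RPS9 line the channel by which messenger RNA enters the subunit. Among the 4 RPS2 genes, AT2G41840 was the only one with a peak in all lists (chromosome 2, 17460871 to 17461890). Its score was 3100 in both replicate lists, its PePr p-value was 3.0e-16, and the interval of 1020 bp was centred 158 bp inside the nearer gene end. At AT3G57490 there was a replicate 2 peak (chromosome 3, 21280273 to 21281732) with a score of 1010.7 and a PePr p-value of 3.1e-08, and its nearest replicate 1 peak lay 16217 bp away.

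The remaining RPS2 genes lie on chromosome 1. AT1G58380, also named XW6, had a replicate 2 peak (21688407 to 21689836) with a score of 547 and a PePr p-value of 1.1e-12. AT1G59359 had no peak in any list, and its nearest peaks lay 8864 bp away in replicate 2, 9342 bp in PePr and 21759 bp in replicate 1. Within 10 kb of AT1G59359 there was 1 PePr peak, and within 10 kb of AT1G58380 there were 5. Reads from near-identical copies can be lost or assigned to either one, and how alike these genes are was not measured here. The authors' handling of reads with several matches is unknown, so the calls at both genes are uncertain.

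All 3 RPS3 genes were in the genomic list, at different heights. AT2G31610 (chromosome 2, 13449721 to 13451111, 1391 bp) had a score of 3100 in both replicate lists and a PePr p-value of 5.5e-24, with its centre 175 bp inside the gene. AT3G53870 (chromosome 3, 19950861 to 19952050, 1190 bp) had 2683 in replicate 1, 3100 in replicate 2 and a p-value of 1.3e-23, with its centre 32 bp inside. AT5G35530 (chromosome 5, 13712031 to 13712540) had the narrowest interval of the family, 510 bp, centred 2 bp inside the gene end. Its scores of 940.0 and 505 were below those of its paralogues, and its PePr p-value of 3.2e-09 was higher than theirs. It has no neighbouring gene end in reach of the peak.

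The RPS9 pair differed. AT5G15200 (chromosome 5, 4935951 to 4936800, 850 bp, centre 54 bp inside) had 3100 in both replicate lists and a PePr p-value of 1.7e-16. AT5G39850 had no replicate 1 peak nearer than 8919 bp. Its replicate 2 peaks scored 553 (15949269 to 15951722 of chromosome 5) and 260 (15951752 to 15953149), and its PePr p-value was 1.2e-13.

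RPSa, RPS3a and RPS14 lie on the side where messenger RNA leaves the subunit. At P40 (AT1G72370), which encodes RPSa, the genomic interval of 1266 bp (chromosome 1, 27244541 to 27245806) had scores of 2019.9 and 3100 and a PePr p-value of 3.7e-20. Its centre lay 242 bp outside the gene, in reach of the end of the next gene. RPSAb (AT3G04770) had no replicate 1 peak, and the nearest was 1246 bp away. Its replicate 2 peak (chromosome 3, 1310183 to 1311647) had a score of 373, the lowest among the highest scores of the 37 genes, and its PePr p-value was 9.3e-10.

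Both RPS3a genes were in all lists, with unlike replicate 1 scores. AT3G04840 (chromosome 3, 1329061 to 1330250, 1190 bp, centre 84 bp inside) had 3100 in both replicate lists. Its PePr p-value of 1.3e-57 was the lowest of the 38 genes and ranked 14 in a list of 24219 peaks. AT4G34670 (chromosome 4, 16548311 to 16548990, 680 bp, centre 50 bp inside) had 846 in replicate 1, 3100 in replicate 2 and a p-value of 1.5e-11.

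In the RPS14 family 2 of 3 genes were in all lists, and the third had peaks in replicate 2 and PePr. AT2G36160 (chromosome 2, 15169014 to 15170290, 1277 bp, centre 166 bp outside) had scores of 2029.8 and 3100 and a PePr p-value of 6.3e-35. At its other end replicate 2 (15171361 to 15172774, score 461.54) and PePr (p-value 6.6e-22) also had peaks, but replicate 1 had none there. AT3G52580 had peaks at both ends in every list. The interval at 1 end (chromosome 3, 19502911 to 19503930, 1020 bp, centre 268 bp inside) had scores of 1168 and 2281 and a p-value of 3.2e-30. The interval beyond the other end (19505291 to 19505970, 680 bp, centre 658 bp outside) had 3100 in both replicate lists and a p-value of 6.9e-11. The latter lay towards UBQ1, which encodes a fusion of ubiquitin with a large-subunit ribosomal protein. AT3G11510 had no replicate 1 peak nearer than 12306 bp, though its replicate 2 peak (chromosome 3, 3624245 to 3625727) scored 2491, with a PePr p-value of 3.0e-09.

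RPS4, RPS6 and RPS13 belong to the body and platform of the subunit, and RPS6 is known for its phosphorylation downstream of TOR kinase. Of the 3 RPS4 genes, AT2G17360 (chromosome 2, 7545961 to 7547150, 1190 bp, centre 116 bp inside) had 3100 in both replicate lists and a PePr p-value of 5.4e-42. AT5G58420 (chromosome 5, 23619121 to 23619970, 850 bp, centre 86 bp inside) had 2042 and 2138 with a p-value of 1.8e-18. AT5G07090 had no replicate 1 peak nearer than 5669 bp. Its ends were covered by a replicate 2 peak of 3666 bp (chromosome 5, 2199373 to 2203038, score 2032) and one of 3360 bp (2203569 to 2206928, score 155). Both peaks reached into the gene, although their centres were 1158 and 1098 bp outside it. Its PePr peaks lay nearer, with centres 184 and 156 bp outside, and the lower p-value was 7.3e-17.

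The RPS6 genes differed in replicate 1. RPS6 (AT4G31700) had an interval of 850 bp (chromosome 4, 15345391 to 15346240) centred 164 bp outside 1 end, with scores of 3100 in replicate 1 and 1393 in replicate 2 and a PePr p-value of 1.4e-29. At its other end the replicate 2 list had a peak scored 3100 (15346988 to 15348522) and PePr one with a p-value of 4.5e-11, but replicate 1 had none there. EMB3010 (AT5G10360), the other RPS6 gene, had a replicate 2 peak (chromosome 5, 3259513 to 3261849) with a score of 2006 and a PePr p-value of 3.8e-08, and no replicate 1 peak nearer than 18355 bp.

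RPS13A (AT4G00100), known as POINTED FIRST LEAF 2 for its mutant, had an interval of 1020 bp (chromosome 4, 36721 to 37740) centred 314 bp inside. Its scores were 2014.6 and 3100 and its PePr p-value was 1.6e-24. The other RPS13 gene, AT3G60770 (chromosome 3, 22461421 to 22462100, 680 bp, centre 18 bp inside), had 1715 and 3100 with a p-value of 6.2e-11. Its replicate peaks were among the widest at these genes, at 3542 and 3187 bp, and were centred 484 and 814 bp outside the gene.

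RPS7 assembles on the platform, and RPS10 and RPS12 sit on the head of the subunit. In the RPS7 family AT3G02560 (chromosome 3, 541111 to 542130, 1020 bp, centre 88 bp outside) had 3100 in replicate 1 and 2264 in replicate 2, with a PePr p-value of 5.0e-19. AT5G16130 (chromosome 5, 5268131 to 5268810, 680 bp, centre 50 bp inside) had the opposite order, 1232 and 3100, with a p-value of 8.4e-13. AT1G48830 had a replicate 2 peak (chromosome 1, 18060581 to 18062037) scored 403, a PePr p-value of 1.4e-11 and no replicate 1 peak nearer than 16544 bp.

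The 3 RPS10 genes were alike in their calls. AT4G25740 (chromosome 4, 13106010 to 13107170, 1161 bp) had 2186 and 2656, with its centre 546 bp outside 1 end, and the PePr p-value there was 5.6e-23. At its other end replicate 2 (13108170 to 13111079, score 1292) and PePr (p-value 5.3e-24) also had peaks. RPS10B (AT5G41520; chromosome 5, 16610191 to 16611040, 850 bp, centre 76 bp inside) had 2304.5 and 3100 with a p-value of 3.8e-23. AT5G52650 (chromosome 5, 21356761 to 21357440, 680 bp, centre 118 bp inside) had 1429 and 2063 with a p-value of 3.7e-16.

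The RPS12 pair differed in replicate 1. AT2G32060 was crossed by a replicate 1 peak of 3446 bp (chromosome 2, 13637681 to 13641126, score 1581) and a replicate 2 peak of 3311 bp (13637768 to 13641078, score 686), each longer than the gene of 1670 bp. Within them lay 3 narrow PePr peaks of 340, 340 and 510 bp, with p-values of 8.4e-07, 2.5e-06 and 4.8e-07, the last the highest among the lowest p-values of the 37 genes. AT1G15930 had no replicate 1 peak nearer than 11943 bp. Its replicate 2 peak (chromosome 1, 5470627 to 5472081) scored 773, and its PePr p-values were 8.4e-16 at 1 end and 1.4e-16 beyond the other.

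**Figure D3:**
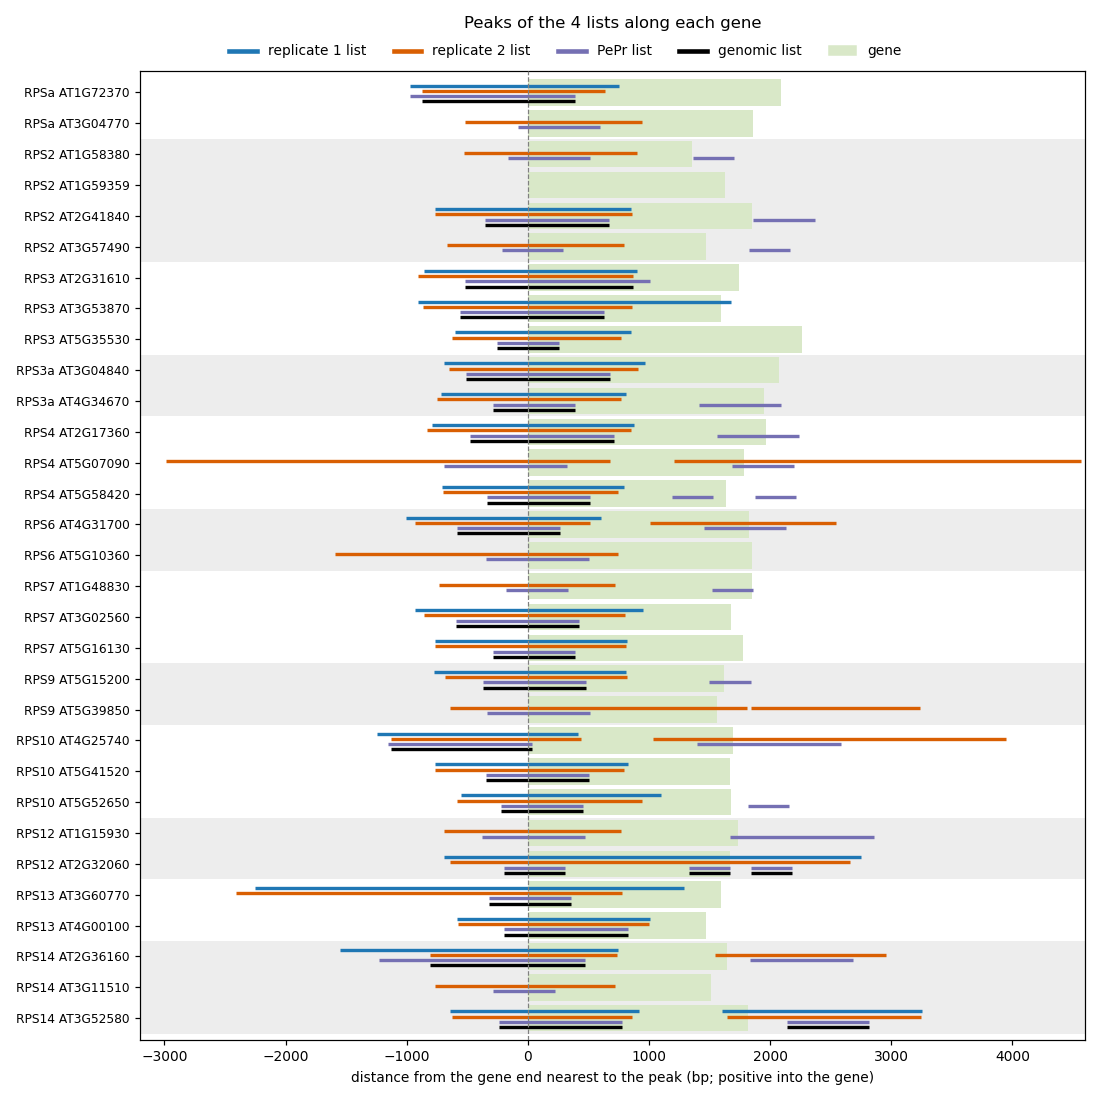
Peaks of the replicate 1 (blue), replicate 2 (orange), PePr (purple) and genomic (black) lists along each of 31 genes from 12 families (green boxes), drawn to scale in bp from the gene end nearest to the peak (x axis, positive into the gene; 1 row per gene). Where a genomic interval is lacking, the highest-scoring replicate 2 peak set the end; AT2G32060 and AT3G52580 have genomic intervals at both ends, and AT1G59359 has no peak.

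Across the 27 genes with a replicate 1 peak, the highest score per gene ran from 780.3 to 3100 with a median of 2304, and 11 of 27 (40.7%) stood at 3100. Over all genes with a replicate 1 peak the median was 1931, and 31.9% stood at 3100 or more. The highest score counts any peak in reach, also one centred away from the gene. At AT3G52580 the replicate 1 peak scored 3100 was centred 609 bp outside the gene, and the other scored 1168. In replicate 2 the highest score per gene over 37 genes ran from 373 to 3100 with a median of 3036, and 18 of 37 (48.6%) stood at 3100. The corresponding values over all genes with a replicate 2 peak were a median of 740.1 and 16.1%. The lowest PePr p-value per gene had a median of 1.4e-16 over 37 genes and of 2.0e-11 over all genes with a PePr peak. The genes for RPS15 to RPS30 had medians of 1782 in replicate 1, 1863 in replicate 2 and 1.0e-13 in PePr.

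Among the 37 genes with a replicate 2 peak, those that lacked a replicate 1 peak had the lower median score in replicate 2. The 10 genes concerned ran from 373 to 2637 with a median of 892, above the 740.1 of all genes with a replicate 2 peak, and 0 of 10 reached 3100. The 27 genes with a replicate 1 peak ran from 505 to 3100 with a median of 3100, and 18 of them stood at 3100. The ranges overlap between 505 and 2637. The same contrast held over all genes, with medians of 334.5 for 5253 genes without and 1593 for 6109 genes with a replicate 1 peak. A score of 3100 or more was reached by 2.46% of the former and 27.7% of the latter. The count of 0 of 10 is therefore near the share over all genes. The lowest PePr p-value per gene had a median of 4.7e-10 in the 10 genes and 2.8e-19 in the 27.

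The peaks were centred close to a gene end. In the genomic list the nearest centre lay at a median of 87.5 bp from an end of the 27 genes (2.5 to 546 bp), against 244.5 bp over all 5392 genes with an interval. Within 200 bp lay 22 of 27 (81.5%), against 43.3% of all genes with an interval and 20 of 28 (71.4%) of RPS15 to RPS30. In replicate 2 the median distance was 61.5 bp over 37 genes, against 347 bp over all genes with a replicate 2 peak. The centre fell inside the gene at 20 of 27 (74.1%) in the genomic list, against 42.4% over all genes with an interval and 71.4% in RPS15 to RPS30. The genes for RPS15 to RPS30 had medians of 69.0 bp in the genomic list and 55.75 bp in replicate 2, slightly closer than RPSa to RPS14. In replicate 2 their share within 200 bp was 78.0%, against 73.0%.

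**Figure D4:**
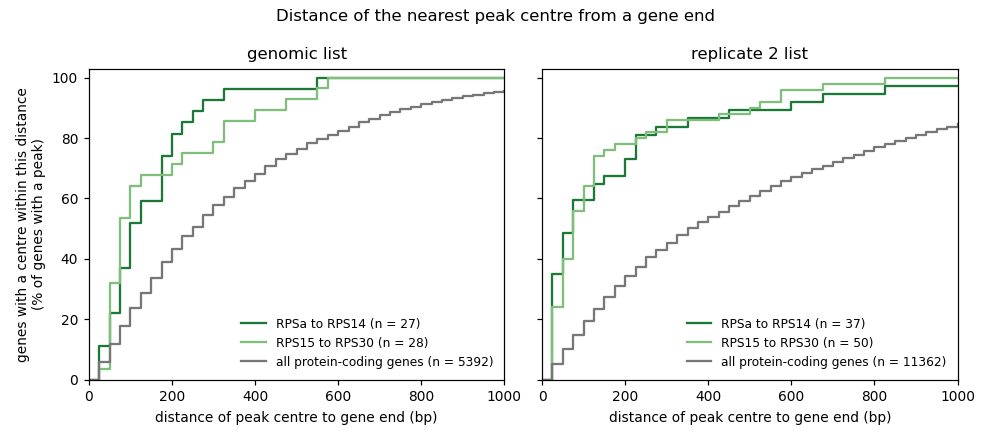
Cumulative percentage of genes (y axis) whose nearest peak centre lies within a given distance in bp of a gene end (x axis, steps of 25 bp), for the genomic list (left) and the replicate 2 list (right). At 200 bp in the genomic list RPSa to RPS14 (dark green) stand at 81.5%, RPS15 to RPS30 (light green) at 71.4% and all genes with an interval (grey) at 43.3%.

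Most of these genes had a genomic interval at 1 end, whereas PePr peaks often reached both. The genomic list held intervals at 1 end only for 24 of 27 genes, and 3, AT2G32060 and AT3G52580 among them, had both ends reached. That is 11.1%, against 21.6% over all genes with an interval and 28.6% in RPS15 to RPS30. The nearest end was the same in replicates 1 and 2 for 26 of 27 genes, AT4G31700 being the exception. Between replicate 2 and PePr it was the same for 32 of 37. For the 29 pairs of replicate peaks at the genomic intervals the centres lay a median of 36 bp apart (1 to 402 bp). Such pairs overlap by construction, because the genomic list holds only shared stretches. Neither the end nor this distance was compared over all genes. PePr, with its narrower peaks, reached both ends at 19 of 37 genes (51.4%), against 40.9% over all genes with a PePr peak and 35.3% in RPS15 to RPS30.

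Peak widths differed from those over all genes in both directions, and most peaks were shared with a neighbour. The peak nearest to the gene end had a median width of 1661 bp in replicate 1 and 1562 bp in replicate 2, against 2224 and 1796 bp over all genes with a peak. In the PePr list it was wider, with a median of 850 bp against 680 bp over all genes. The genes for RPS15 to RPS30 had similar medians of 1671, 1522 and 850 bp in these 3 lists. The genes themselves were short, with a median length of 1702 bp (1306 to 2263) against 2078 bp over all genes. Genes are packed closely, and at 22 of the 27 genes the nearest genomic interval also reached an end of another gene. This share was 81.5%, against 68.0% over all genes with an interval and 78.6% in RPS15 to RPS30. When a peak counted for no gene but the one whose end was closest, 22 of 38 genes kept a genomic interval (57.9%), against 13.5% of all genes. The 5 that lost it included AT1G72370, AT4G25740, AT4G00100 and AT2G36160.

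Genes with and without a genomic interval overlapped in size and spacing. The median length was 1712 bp in the 27 with an interval and 1630 bp in the 11 without, and their median gaps to the nearer neighbouring gene were 125 and 166 bp. The ranges of length, 1306 to 2263 bp and 1356 to 1857 bp, overlapped.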

How the data were processed

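Chromatin was fixed with 1% formaldehyde and sheared to 250 to 500 bp, and libraries from fragments of 270 to 300 bp were amplified with 18 PCR cycles and sequenced as single reads of 50 bp, per the labels' protocols. Bowtie2 version 2.2.2, SAMtools, bedtools and MACS and the builds TAIR9 and TAIR10 are named, without roles, per the submitters' processing notes. The sources used here do not state the controls, the thresholds, any pooling or which build a list uses. The authors deposited a score per peak in the replicate 1 (3975 peaks) and replicate 2 (7480 peaks) lists, a p-value per peak in the PePr list (24219 peaks), and positions only in the genomic list. Depth is unknown.

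Peaks are printed as deposited, counted from 1. Genes came from a RefSeq table of TAIR10.1, which gives no strand. None of its coordinates are printed, and distances assume that the lists share its positions. Overlap was 1 bp or more. Assignment was tested on simulated peaks. Python 3.11.15, pandas 2.3.3 and scipy 1.17.1 (exact intervals) were used. The genes, the RPS15 to RPS30 list and the rule for named genes (all 38, of which some are not reported here) were chosen with earlier results of these data known. No test was made: 1 library per group gives no replicate error.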

Additional observations from a re-analysis of the deposited data

How the results depend on the processing

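The counts of genes with a peak were recomputed under 6 other rules per list. With windows of 200 or 1000 bp, or with overlap of the gene itself, each count stayed at 27, 37, 37 and 27 in the replicate 1, replicate 2, PePr and genomic lists, and 9 families differed under both windows. In the same order, 22.9%, 38.6%, 60.8% and 17.7% of all genes had a peak with the 200 bp window. With 1000 bp the shares of all genes were 27.6%, 46%, 75.6% and 22.7%, and with gene overlap 22%, 37.4%, 61% and 17.2%. With peak centres within 500 bp the counts were 26, 33, 37 and 26, against 13.1%, 25.2%, 59% and 15% of all genes. With nearest ends only the counts were 20, 30, 31 and 22, against 13.5%, 25.1%, 53.9% and 13.5% of all genes. With the higher-scoring 50% of peaks the counts were 19, 32, 33 and 19, where 13.1%, 23.5%, 46.9% and 9.45% of all genes had a peak. PePr peaks carry p-values in place of scores, and genes lost there had lowest p-values above the list median of 5.53e-09. The genomic list has neither, and it lost the same genes as the replicate 1 list, so its count is no separate check. Each count stayed within 1.5 times the reported one. The number of lists fell for 5, 9 and 15 of the 38 genes under the last 3 rules and rose for none. Gene starts alone and promoter motifs, planned as alternatives, were not run, because no strand or sequence was used here. No paired analysis was possible because each group had 1 library and the lists carry no replicate pairs. Unknown depth limits what a missing replicate 1 peak shows. If each replicate list came from its own approach, the lists also differ in plant line, precipitation and control, and these cannot be told apart.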
